A study of Homo sapiens with 8 samples.

Results

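The region described here is the end of the long arm of human chromosome 2, from 210 Mb to the last base of the chromosome (hg38 build, a span of 32.2 Mb). Its members are the ATAC-seq peaks that start there, 989 of 70312 peaks in the authors' deposited table, together with the RNA of the genes those peaks are annotated to. The stretch was selected on measured values, the ATAC fold changes of its peaks, which leaned toward a higher ATAC signal in the knockout. Those fold changes are therefore a description and carry no test. The peaks name 276 genes, and 153 of these names have RNA rows, 155 rows in all, of which 123 carry an adjusted p. The other 32 rows, with mean normalised counts of at most 4.25, have none. A further 12 peaks carry no gene name.

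Raji is a B cell line from a Burkitt lymphoma. RGS-SE knockout cells, in which CRISPR/Cas9 deletion targeted a super-enhancer near RGS1 and RGS13 on chromosome 1, were compared with wild-type Raji cells, with 2 libraries per genotype in RNA-seq and in ATAC-seq. The replicates are labelled as biological, and the knockout was taken from single clones whose number is not given, so genotype and clone cannot be told apart. The deposited tables give 1 mean, 1 fold change and 1 standard error (SE) per peak or gene and no value per library, so the levels below are the fitted normalised counts of the genotypes, and the SE carries the spread between libraries.

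ATAC-seq counts insertions of the Tn5 transposase, which cuts where DNA is free of nucleosomes, so peaks mark promoters, enhancers and insulator sites. A peak's count grows with how open the site is and with how many copies of the DNA the cells hold. The number of copies was not measured here, so both are carried in every ATAC value below and cannot be told apart. The region holds genes of broad use, such as those for the Ku80 repair protein, the proteasome subunit PSMD1 and the RNA-binding protein vigilin, beside genes with a role in lymphocytes, such as IKZF2, SP140 and ACKR3.

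The summed mean normalised counts were 32830399 in the RNA table and 19927559 in the ATAC table. RNA size factors, which scale with depth, were 1.07 and 1.03 in the knockout libraries and 1.30 and 0.717 in the wild-type libraries. The table headers do not say which genotype is on top of the ratio, and its sign was read from the peak chr1:192609102-192609836 in the targeted interval, taken as lost in knockout, at 0.186 fitted counts in knockout and 622 in wild type, a log2 fold change of -11.71 (SE 1.45) in the authors' deposited table. The other 17 peaks of the labelled interval summed to 4939 fitted counts in knockout and 5082 in wild type, so the sign rests on that peak. Of the B cell markers MS4A1, CD79A, CD79B, PAX5, CD22 and CD74, all 6 had RNA rows, with 3479 CPM (the mean count scaled to a summed count of 1000000) in knockout and 2461 in wild type. T and NK cell markers summed to 0.373 CPM in knockout and 0.125 in wild type, and myeloid markers to 1.52 CPM in knockout and 1.67 in wild type. Epithelial, fibroblast and erythroid markers summed to 8.60 CPM in knockout and 3.99 in wild type, mostly COL1A1. The part of these levels in the results below was not tested.

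Before the values, the DNA of 7 sites that the results turn on is given. The first line is the RefSeq promoter window of SPAG16, the gene with the highest RNA fold change of the region, at chr2:213284214-213284513 on GRCh38.p14, inside the promoter peak with the highest fold change. The next is the RefSeq promoter window of SGPP2 at chr2:222423738-222424037 on the same build, whose promoter, introns and RNA were all higher in knockout. The other 5 lines are 150 bases at the centre of a peak, read from the plus strand of hg38. They are the ACKR3 peak with the highest fold change (chr2:236618407-236618556), large gains in introns of GAL3ST2 (chr2:241788597-241788746) and XRCC5 (chr2:216113708-216113857), and 2 of the peaks that went against the region, in LINC01614 (chr2:215728679-215728828) and upstream of CUL3 (chr2:224638532-224638681). Capitals mark letters that match a searched motif on either strand, namely AP-1 (TGANTCA), NF-kB (GGNNTTTCC), the ETS-IRF composite (GGAANNGAA), ETS (CCGGAAGT), the E-box (CACGTG) or CTCF (CCANNAGNG).
SPAG16 promoter: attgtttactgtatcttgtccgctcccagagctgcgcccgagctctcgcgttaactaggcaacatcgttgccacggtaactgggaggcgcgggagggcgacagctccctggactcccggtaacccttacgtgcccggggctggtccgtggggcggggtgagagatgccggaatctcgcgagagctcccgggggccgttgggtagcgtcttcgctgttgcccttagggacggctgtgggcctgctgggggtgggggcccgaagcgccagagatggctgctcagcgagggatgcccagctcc
SGPP2 promoter: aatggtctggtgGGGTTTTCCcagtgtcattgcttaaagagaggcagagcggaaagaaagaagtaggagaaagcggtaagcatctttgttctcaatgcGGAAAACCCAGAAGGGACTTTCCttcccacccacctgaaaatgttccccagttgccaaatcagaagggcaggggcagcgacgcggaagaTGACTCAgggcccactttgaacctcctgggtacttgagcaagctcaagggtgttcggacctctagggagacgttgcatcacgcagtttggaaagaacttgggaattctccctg
ACKR3 distal peak: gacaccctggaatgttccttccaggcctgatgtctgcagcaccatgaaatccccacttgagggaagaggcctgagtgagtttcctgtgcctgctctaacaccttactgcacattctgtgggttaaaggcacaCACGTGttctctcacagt
GAL3ST2 intron peak: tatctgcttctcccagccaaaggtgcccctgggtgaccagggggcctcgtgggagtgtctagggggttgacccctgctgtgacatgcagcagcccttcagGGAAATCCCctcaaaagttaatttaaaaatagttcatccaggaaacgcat
XRCC5 intron peak: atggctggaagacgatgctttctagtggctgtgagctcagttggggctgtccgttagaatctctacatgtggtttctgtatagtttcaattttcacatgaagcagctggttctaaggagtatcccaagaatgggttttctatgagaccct
LINC01614 intron peak: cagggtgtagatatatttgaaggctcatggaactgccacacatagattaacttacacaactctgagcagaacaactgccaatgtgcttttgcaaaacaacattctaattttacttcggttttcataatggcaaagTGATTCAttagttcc
CUL3 upstream peak: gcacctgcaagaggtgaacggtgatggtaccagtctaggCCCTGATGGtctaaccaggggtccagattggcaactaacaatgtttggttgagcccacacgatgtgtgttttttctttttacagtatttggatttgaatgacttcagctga
The SGPP2 window holds 3 NF-kB matches, 1 AP-1 match and 1 CTCF match. The GAL3ST2 peak holds an NF-kB match, the ACKR3 peak an E-box, the LINC01614 peak an AP-1 match and the CUL3 peak a CTCF match, while the SPAG16 and XRCC5 windows hold none of the 6 motifs.

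Across the region the peaks were shifted upward together. The median ATAC log2 fold change, knockout over wild type, was 0.52 (quartiles 0.20 and 0.97, n = 989 peaks), a 1.43-fold higher ATAC signal, and 828 peaks, 83.7%, lay above 0. On chromosome 2 before 210 Mb the median over 4584 peaks was -0.03 (quartiles -0.34 and 0.37), and over other chromosomes it was -0.01. In the region 534 peaks were higher in knockout at an adjusted p under 0.05 in the authors' deposited table, which is 54.0% of them, and 49 were lower, which is 4.95%. Over all peaks, 20.4% were higher and 15.5% were lower at that threshold. The gain was similar for strong and weak peaks, with a median of 0.51 for the 546 peaks with a mean count of at least 100 and 0.55 for the 443 weaker ones, although the weaker peaks spread wider (SD 1.02 against 0.60 for the stronger).

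Along the chromosome the shift lay in a long run of windows. All 31 windows of 1 Mb from 212 Mb onward had medians above 0, between 0.30 and 0.95. The windows from 210 to 211 Mb and from 211 to 212 Mb, left out of that count, had medians of 0.11 and -0.57. The region was chosen on these ATAC values and 212 Mb is not its start, so the run is a description and not a test. Before 210 Mb, 92 of 207 windows of 1 Mb were above 0, and the longest unbroken run of them was 6 windows. Single windows elsewhere went higher than any in the region, up to 3.47 in the window from 150 to 151 Mb. In windows of 5 Mb the medians before 210 Mb ran from -0.27 to 0.28, and the 7 windows of the region gave 0.36, 0.46, 0.49, 0.49, 0.49, 0.63 and 0.91 toward the end of the chromosome.

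**Figure D1:**
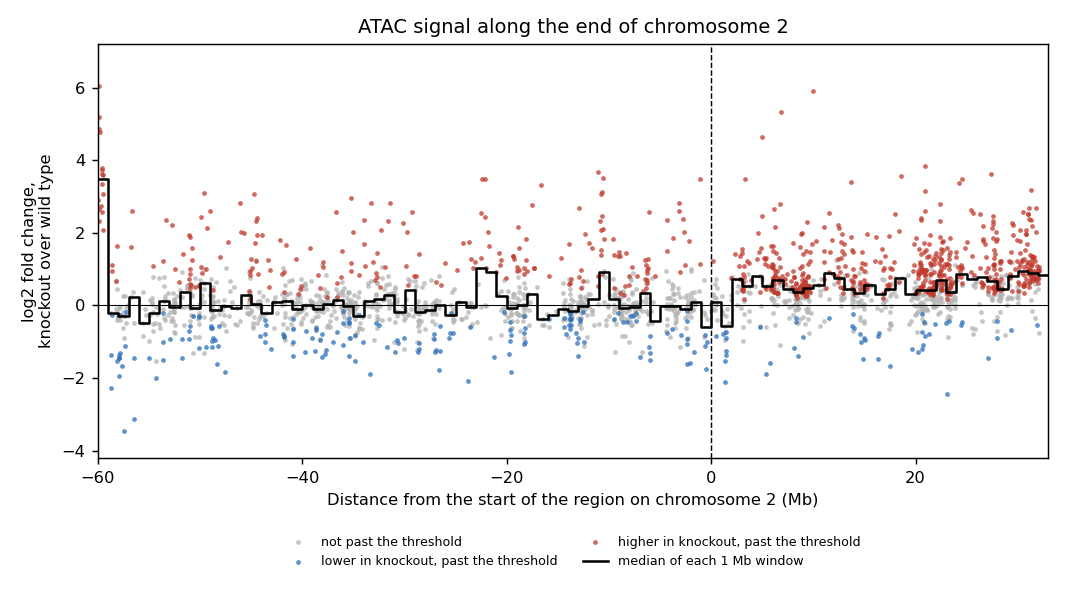
ATAC log2 fold change (knockout over wild type) of each peak against distance in Mb from the start of the region on chromosome 2, with peaks past an adjusted p of 0.05 coloured and the black step line at the median of each 1 Mb window. The step line runs near 0 over most of the left side and stays above 0, between 0.30 and 0.95, from 2 Mb after the dashed line to the end of the chromosome.

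The first stretch of the region did not share the ATAC shift. Between 210 and 212 Mb the median of 34 peaks was -0.14, with 2 peaks higher and 8 lower. The 212 to 240 Mb stretch had a median of 0.51 over 858 peaks, with 452 higher and 40 lower. From 240 Mb to the end the median was 0.91 over 97 peaks, 1.88-fold, with 80 higher and 1 lower. The 5 peaks just before the start of the region had log2 fold changes of -0.27, -1.75, -0.39, -1.0 and 0.04. The 5 just after it had -0.16 at the RPE promoter, 0.11 and 0.10 at peaks annotated to LOC101928020, 1.22 in KANSL1L intron 1 and -0.11 at the KANSL1L promoter, so no step marks the chosen start itself.

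Every common class of site was shifted by about the same amount. Promoter peaks had a median of 0.51 (quartiles 0.38 and 0.73, n = 99), and 87 were higher in knockout and 5 lower. Intron peaks had a median of 0.52 (0.16 and 0.98, n = 485), with 241 higher and 22 lower. Intergenic peaks had a median of 0.57 (0.23 and 1.07, n = 353), with 180 higher and 18 lower. Promoters spread the least of the 3 classes, and before 210 Mb the 435 promoter peaks had a median of -0.07, with 43 higher and 82 lower. The smaller classes had medians of 0.43 for 14 exon peaks, 0.32 for 18 peaks at transcription termination sites, 0.80 for 8 peaks in 3' UTRs, 0.46 for 4 in 5' UTRs and 0.23 for 8 in non-coding exons.

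**Figure D2:**
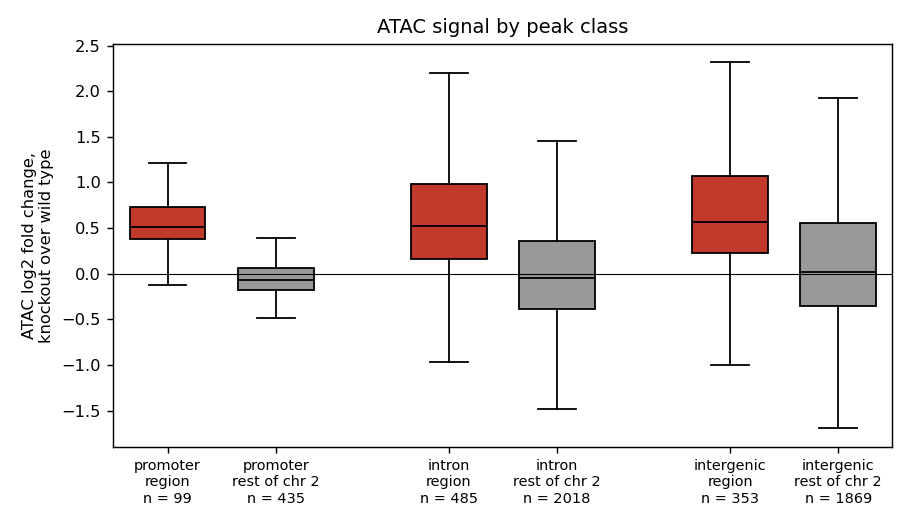
ATAC log2 fold change (knockout over wild type) of promoter, intron and intergenic peaks in the region (red) and on the rest of chromosome 2 (grey). Boxes span the quartiles with the median as a line, whiskers reach 1.5 times the box height, and points beyond are not drawn. The 3 red medians are 0.51, 0.52 and 0.57 and the grey ones are -0.07, -0.04 and 0.01.

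The largest gains among peaks of at least median strength lay at 6 sites. The SPAG16 promoter had 623 fitted counts in knockout and 55.6 in wild type, a log2 fold change of 3.49 (SE 0.35) in the authors' deposited table. An intergenic peak annotated to LINC01891 had 315 fitted counts in knockout and 30.4 in wild type (3.37, SE 0.41, taken from the authors' deposited table). The SNED1 intron 8 peak was the strongest of the 6 by counts, at 992 in knockout and 172 in wild type (2.53, SE 0.13, taken from the authors' deposited table). SNED1 encodes an extracellular matrix protein. The GAL3ST2 intron 1 peak had 561 counts in knockout and 87.5 in wild type, and the XRCC5 intron 2 peak had 426 in knockout and 67.1 in wild type. GAL3ST2 encodes a sulfotransferase acting on galactose. The 6th, in an intron annotated to ABCA12, a lipid transporter gene, had 215 counts in knockout and 38.5 in wild type.

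Peaks that went against the region were fewer and smaller in change. The LINC01614 intron peak was at 67.6 fitted counts in knockout and 204 in wild type (log2 fold change -1.59, SE 0.24, taken from the authors' deposited table). An intergenic peak annotated to LINC01907 was at 147 in knockout and 336 in wild type. The intergenic peak upstream of CUL3 was at 330 in knockout and 661 in wild type (-1.0, SE 0.12, taken from the authors' deposited table). CUL3 encodes a cullin scaffold of ubiquitin ligases, and 6 of its 15 peaks were higher, 2 lower. The last 3 of the 6 largest decreases, annotated to LANCL1, MIR4777 and MIR5702, stood at -0.83, -0.78 and -0.77 on the log2 scale, by the authors' deposited table.

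The NF-kB letters stood in the 300 bp centre window of 32 of the region's 236 peaks with a log2 fold change of at least 1, which is 13.6%, and of 47 of the other 753, which is 6.24%. Over all peaks split in the same way, the shares were 12.6% and 6.58%. The AP-1 letters stood in 11.0% and 9.96% of the region's peaks split in that way, and in 15.4% and 10.1% of all peaks. These shares were not tested. NF-kB is a transcription factor family that drives genes of B cell activation. The region as a whole held NF-kB matches in 7.99% of windows (all peaks 7.28%), AP-1 in 10.2% (10.8%), ETS-IRF in 10.4% (9.81%), ETS in 0.607% (1.30%), E-box in 4.75% (4.98%) and CTCF in 28.7% (23.0%). A match is a string of letters and not a measured binding site. Peaks of the region had a median GC content of 48.7% and a median width of 759 bp, against 48.3% and 757 bp for all peaks.

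RNA of the region's genes leaned the same way. RNA counts, like ATAC counts, can grow with the number of gene copies, which was not measured, and in bulk RNA fewer cells of a type and less RNA per cell cannot be told apart. Over the 123 tested genes the median RNA log2 fold change was 0.49 (quartiles 0.10 and 0.77), 1.40-fold, and 99 genes, 80.5%, lay above 0. Other tested genes of chromosome 2 had a median of 0.09 (n = 989) and those of other chromosomes 0.01. By DESeq2's Wald test in the authors' deposited table, 47 genes rose, 38.2% of those tested, and 5 fell, 4.07%. Over all 17013 tested genes 9.89% were higher and 9.28% lower. Genes that the region's peaks name had more counts, with a median mean count of 1232 against 337 over all tested genes. At a mean count of at least 100, 47.4% of 95 such genes were higher and 5.26% lower. Over all 10675 tested genes at that level the shares were 13.2% and 13.1%. Of the 47 risers, 37 also had a peak annotated to their promoter. The share of 38.2% holds only for genes that a peak names, and the region's other tested genes were counted with the rest of chromosome 2. With every tested gene placed by its start, in 5 Mb windows from 210 Mb, 8 of 14, 14 of 54, 6 of 14 and 2 of 10 rose. Toward the end it was 5 of 37, 4 of 17 and 11 of 32. In these windows 4 genes fell from 215 to 220 Mb, 1 from 225 to 230 Mb and 0 elsewhere. The RNA libraries did not enter the choice by ATAC values, but the region was chosen with RNA results of the same cells known. The counts are therefore read only beside the shares over all tested genes.

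**Figure D3:**
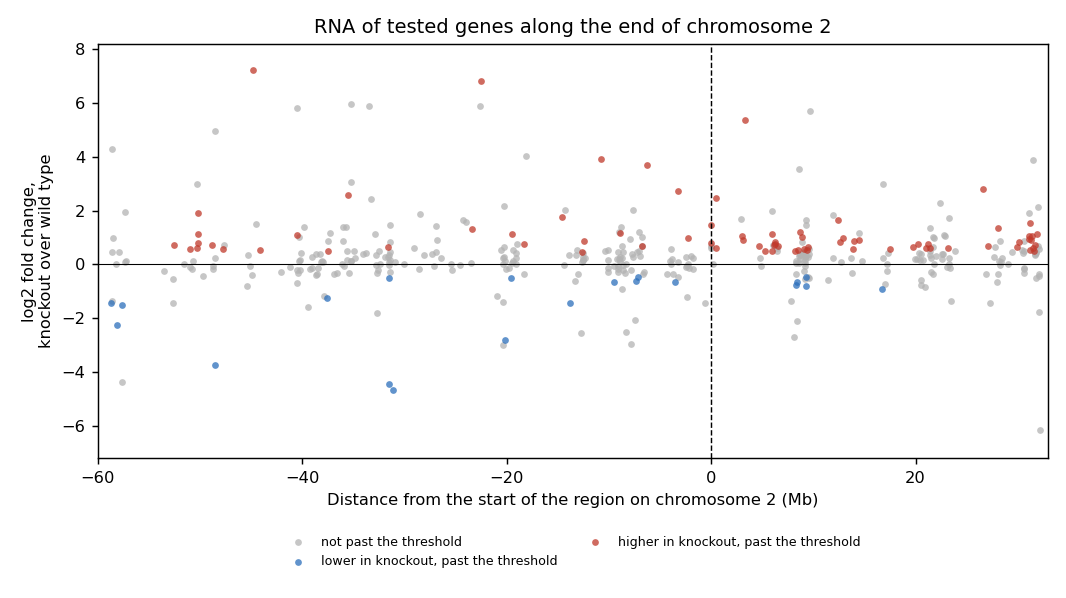
RNA log2 fold change (knockout over wild type) of each tested gene against the distance of its start in Mb from the start of the region on chromosome 2, with genes past an adjusted p of 0.05 coloured. To the right of the dashed line most points lie above 0. Among the 123 genes that the region's peaks name, 47 points are red and 5 are blue, and tested genes that no peak names are drawn as well.

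RNA and ATAC signal parted at the start of the region. Between 211 and 212 Mb, where 19 peaks had a median of -0.57 with 1 higher and 7 lower, 0 tested genes start. By the annotation, 7 tested genes start between 210 and 211 Mb, where 15 peaks had a median of 0.11 with 1 higher and 1 lower. Of these genes 4 rose and 0 fell. These 4 are the ones that peaks of the region are annotated to. KANSL1L, a paralogue of a subunit of the NSL histone acetyltransferase complex, was at 720 fitted counts in knockout and 262 in wild type (log2 fold change 1.46, SE 0.33, adjusted p 0.000185, taken from the authors' deposited table), while its promoter peak was at 1454 in knockout and 1568 in wild type. CPS1, the mitochondrial enzyme that starts the urea cycle, was low, at 73.7 counts in knockout and 13.2 in wild type (2.48, SE 0.81, adjusted p 0.0159, taken from the authors' deposited table). RPE, of the pentose phosphate pathway, and LANCL1, a glutathione-binding protein, rose by 0.81 and 0.61 on the log2 scale in the authors' deposited table. RPE overlaps KANSL1L, so reads in the overlap may be assigned uncertainly. Among only the tested genes that peaks of the region name, 33 of 98 rose and 5 fell from 212 to 240 Mb (median 0.40). From 240 Mb to the end 10 of 21 such genes rose and 0 fell (median 0.62). With every tested gene placed by its start, 11 of 32 rose in that last stretch.

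The largest rise in RNA was that of SPAG16, a gene for a protein of the central apparatus of sperm tails and cilia, which lies at chr2:213284389-214410501 on the plus strand. It was at 157 fitted counts in knockout and 3.75 in wild type, and the log2 fold change in the authors' deposited table was 5.39 (SE 0.78, adjusted p 3.49e-10). Its mean level was only 2.45 CPM, so the wild-type level rests on few reads. Its promoter peak was the one with 623 counts in knockout and 55.6 in wild type, and its other peak had a log2 fold change of 0.67.

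ACKR3, the atypical chemokine receptor that takes up CXCL12, had the smallest adjusted p of the named genes of the region. It lies at chr2:236567787-236582354 and was at 1391 fitted counts in knockout and 198 in wild type, 7.02-fold (log2 fold change 2.81, SE 0.23, adjusted p 1.31e-30, taken from the authors' deposited table). All 7 peaks annotated to it were higher, with ATAC log2 fold changes from 0.56 to 2.19. The 4 peaks with the highest values, 1.68 to 2.19, lay at its transcription termination site and beyond, and the 3 at or before its first intron had 0.56 to 0.61.

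SGPP2, which encodes a phosphatase of sphingosine-1-phosphate, a lipid that guides lymphocyte movement, showed the same in all its peaks. Its RNA was at 1593 fitted counts in knockout and 508 in wild type (log2 fold change 1.65, SE 0.22, adjusted p 1.82e-12, taken from the authors' deposited table). Its promoter peak was at 1070 counts in knockout and 439 in wild type, and the log2 fold changes of its 6 peaks ran from 0.64 to 2.20. The highest 2, at 2.20 and 2.14, lay in intron 2, and all 6 were past the threshold.

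HDLBP, the gene of vigilin, was the most abundant of the large risers, at 44812 fitted counts in knockout and 15513 in wild type (log2 fold change 1.53, SE 0.15, adjusted p 1.83e-22, taken from the authors' deposited table). Its 4 peaks had ATAC log2 fold changes from 0.76 to 1.12, all higher. SEPTIN2, a septin that builds cytoskeletal filaments, overlaps HDLBP and was at 15265 counts in knockout and 8121 in wild type (0.91, SE 0.17, adjusted p 2.52e-06, taken from the authors' deposited table). SCLY, selenocysteine lyase, and STK36, a kinase needed for cilia, completed the 8 largest increases, at 1.36 (SE 0.29) and 1.22 (SE 0.27) in the authors' deposited table. SCLY shares its locus with the UBE2F-SCLY readthrough gene.

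**Figure D4:**
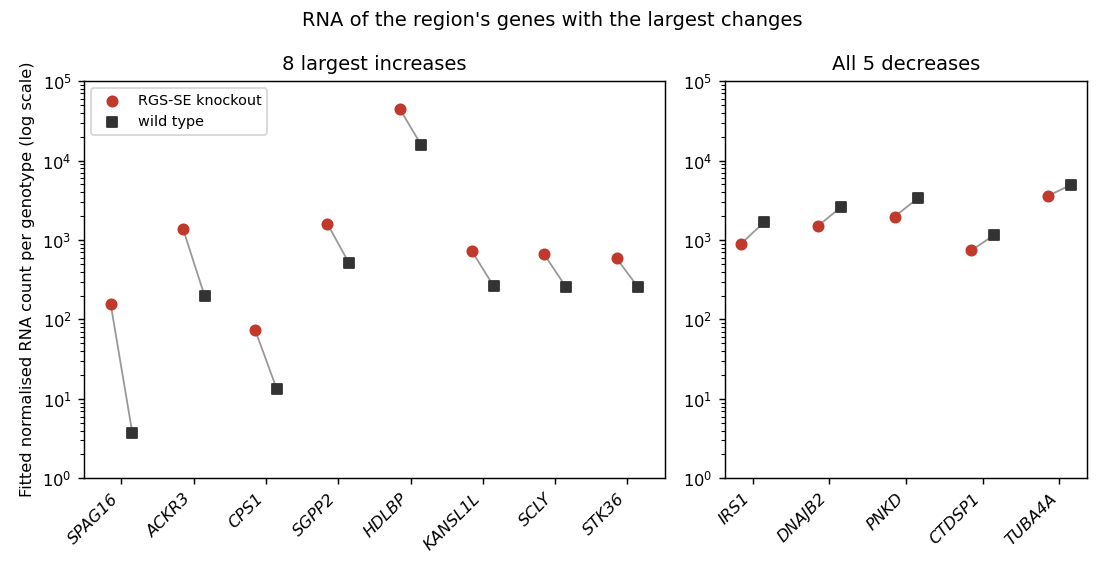
Fitted normalised RNA count (log scale) of the 8 genes of the region with the largest rises and of the 5 that fell, with RGS-SE knockout as red circles left of wild type as dark squares. SPAG16 is at 157 in knockout and 3.75 in wild type, HDLBP at 44812 in knockout and 15513 in wild type, and each of the 5 falling genes has its circle below its square.

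Only 5 tested genes fell, and 3 of them had a peak annotated to their own promoter that was higher in knockout. IRS1, an adaptor of insulin receptor signalling, was at 901 fitted counts in knockout and 1679 in wild type (log2 fold change -0.90, SE 0.22, adjusted p 0.000753, taken from the authors' deposited table), while its intron peaks had ATAC log2 fold changes of 0.97 and 0.17. A promoter peak annotated to RHBDD1, at chr2:226799244-226800057, spans the start of IRS1 and was at 938 counts in knockout and 737 in wild type (0.35). DNAJB2, a co-chaperone, was at 1499 counts in knockout and 2587 in wild type (-0.79, SE 0.23, adjusted p 0.00526, taken from the authors' deposited table). CTDSP1, a phosphatase acting on RNA polymerase II, was at 739 in knockout and 1158 in wild type, and TUBA4A, an alpha tubulin, at 3574 in knockout and 4953 in wild type. Their promoter peaks had ATAC log2 fold changes of 0.35 for DNAJB2, 0.41 for CTDSP1 and 0.30 for TUBA4A. Of the 3 peaks annotated to CTDSP1 only 1 was higher. The one in its 5' UTR, at -0.11, and the one before its start, at 0.11, did not pass. PNKD, named for a movement disorder, was at 1963 counts in knockout and 3341 in wild type (-0.77, SE 0.19, adjusted p 0.000741, taken from the authors' deposited table). The promoter peak annotated to PNKD, at chr2:218322225-218323566, was also lower (-0.34), but it lies inside the gene. The gene starts at 218269651, beside a promoter peak annotated to AAMP (chr2:218269709-218270638). That AAMP peak was at 2593 counts in knockout and 1931 in wild type (0.43). PNKD overlaps AAMP and TMBIM1, and TUBA4A overlaps STK16.

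The gene lists from here on hold only genes that a peak of the region names. Of the 123 tested genes so named, 38.2% rose and 4.07% fell (all tested genes 9.89% and 9.28%). No list was tested against these shares. The lists were written by hand, and some members, such as STK36, CNOT9, ILKAP and TRAF3IP1, fit the name of their list poorly. Genes with a role in lymphocytes were mixed. IKZF2, which encodes the Ikaros family factor Helios, was at 3294 fitted counts in knockout and 1564 in wild type (log2 fold change 1.07, SE 0.17, adjusted p 3.04e-08, taken from the authors' deposited table), with 0.45 at its promoter peak. Of 6 tested immune signalling and receptor genes, IKZF2 and ACKR3 rose and 0 fell, and the median was 0.02. INPP5D, the phosphatase SHIP1 that dampens B cell receptor signals, had -0.10 (SE 0.16), and DOCK10, a guanine nucleotide exchange factor of lymphocytes, had 0.14 (SE 0.17) in the authors' deposited table. Neither passed, although the 13 peaks of INPP5D had a median of 0.32 and the 20 of DOCK10 0.35. CXCR2, a neutrophil chemokine receptor, had 4.72 counts in knockout and 30.4 in wild type and did not pass (-2.69, SE 1.37, adjusted p 0.170, taken from the authors' deposited table).

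The SP family sits in a row and encodes chromatin readers of nuclear bodies. SP140 rose, at 2549 fitted counts in knockout and 1494 in wild type (log2 fold change 0.77, SE 0.17, adjusted p 0.000124, taken from the authors' deposited table). SP140L, SP110 and SP100 did not pass, at 0.41, 0.20 and 0.17 in the authors' deposited table, and the median of the 4 was 0.31. SP140 and SP110 overlap. SP100 had 13 peaks with a median ATAC log2 fold change of 0.94 beside its RNA at 1868 counts in knockout and 1659 in wild type.

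In the list written for repair, replication and the centromere, 4 of 8 tested genes rose and 0 fell (median 0.52). Over the tested genes that the region's peaks name 38.2% rose and 4.07% fell. XRCC5, the Ku80 subunit that binds broken DNA ends, was at 30349 fitted counts in knockout and 18493 in wild type (log2 fold change 0.71, SE 0.15, adjusted p 2.27e-05, taken from the authors' deposited table). BARD1, the partner of BRCA1, was at 3746 in knockout and 2343 in wild type. NHEJ1, a factor of DNA end joining, was another. The last riser of the list was STK36, the kinase needed for cilia, which is not a gene of these functions. HJURP, the chaperone of the centromeric histone, was at 4780 in knockout and 3422 in wild type and did not pass (adjusted p 0.0577, taken from the authors' deposited table).

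In the ubiquitin, proteasome, signalosome and autophagy list 6 of 12 tested genes rose and 0 fell (median 0.44). CUL3 was at 10894 fitted counts in knockout and 5826 in wild type (log2 fold change 0.90, SE 0.17, adjusted p 2.84e-06, taken from the authors' deposited table). TRIP12, a ubiquitin ligase, was at 29317 in knockout and 18761 in wild type, and PSMD1, a subunit of the proteasome cap, at 8656 in knockout and 5662 in wild type. COPS8 of the signalosome, ATG16L1 of autophagy and the deubiquitinase USP37 were the other 3, with 0.67, 0.61 and 0.52 in the authors' deposited table. TRIP12 overlaps FBXO36 and PSMD1 overlaps HTR2B.

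In the list written for translation, RNA binding and RNA decay, 5 of 10 tested genes rose and 0 fell (median 0.64). Beside HDLBP these were MTERF4, a mitochondrial ribosome factor, at 2500 fitted counts in knockout and 1187 in wild type, and FARSB, a subunit of phenylalanyl-tRNA synthetase, at 9471 in knockout and 5257 in wild type. Both were past the threshold at 1.07 and 0.85 on the log2 scale, by the authors' deposited table. NCL, nucleolin, was at 93729 counts in knockout and 60950 in wild type (0.62 in the authors' deposited table). RPL37A rose as well and PTMA did not pass, but both genes have processed pseudogenes, so their counts are uncertain.

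Metabolic and mitochondrial genes had 6 risers and 1 faller, PNKD, among 9 tested (median 0.54). ACSL3, which activates fatty acids, was at 5506 fitted counts in knockout and 2816 in wild type (log2 fold change 0.97, SE 0.16, adjusted p 1.22e-07, taken from the authors' deposited table). NDUFA10 of respiratory complex I was at 5224 in knockout and 3342 in wild type. SCLY, CPS1, the purine synthesis enzyme ATIC and the peptidase DNPEP were the other risers.

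Among 11 tested cytoskeleton, septin and kinase genes 5 rose and 2 fell, IRS1 and TUBA4A (median 0.43). FARP2, an exchange factor for small GTPases, was at 7219 fitted counts in knockout and 3426 in wild type (log2 fold change 1.07, SE 0.15, adjusted p 1.72e-10, taken from the authors' deposited table). Of its 12 peaks 11 were higher, and the promoter peak was at 2043 counts in knockout and 1127 in wild type. PASK, a nutrient-sensing kinase, was at 2589 in knockout and 1351 in wild type, and SEPTIN2, STK25 and ARPC2 were the other 3. FARP2 overlaps STK25, PASK overlaps PPP1R7 and MTERF4 overlaps SNED1.

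In the list written for transcription and chromatin regulators, 2 of 8 tested genes rose and 0 fell (median 0.10). ING5, a reader of histone methylation, was at 6196 fitted counts in knockout and 3767 in wild type, and THAP4, a protein with a THAP domain, at 3296 in knockout and 2305 in wild type. For THAP4 RNA the authors' deposited table gives 0.52 (SE 0.18, adjusted p 0.0301), beside 1.22 (SE 0.08) at its promoter peak. HES6, a bHLH factor, did not pass for RNA at 63.4 counts in knockout and 34.5 in wild type, with 1.22 at its promoter peak. Of 4 extracellular matrix and secreted genes WNT10A, a Wnt ligand, rose, at 1096 counts in knockout and 542 in wild type, and COL4A4, COL6A3 and GPC1 did not pass (median -0.09). All 6 WNT10A peaks were higher, with ATAC log2 fold changes from 0.36 to 0.83. The cell death list had BARD1 rising, CTDSP1 falling and LRRFIP1 and STK11IP not past the threshold (median 0.33).

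The promoter peaks, chosen for their ATAC values, were set beside the RNA of their genes. Of 79 tested genes with a promoter peak, 61 had both values above 0, 12 had a higher promoter peak with lower RNA, 2 the reverse and 4 both below 0. Taken on their own, 73 of the promoter peaks and 63 of the RNA values lay above 0, so most pairs share a direction from these shares alone and nothing is read from the 61. Across these genes, which share the same libraries and are not independent replicates, Pearson's correlation was 0.74 and Spearman's was 0.30. Without SPAG16 they were 0.54 and 0.28, and over the 68 genes with a mean RNA count of at least 100 they were 0.35 and 0.20. The median over a gene's peaks was itself 0.54 for the 47 genes that rose, 0.30 for the 5 that fell and 0.51 for the 71 not past the threshold, so the peaks' median hardly separated the risers from genes that did not pass.

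**Figure D5:**
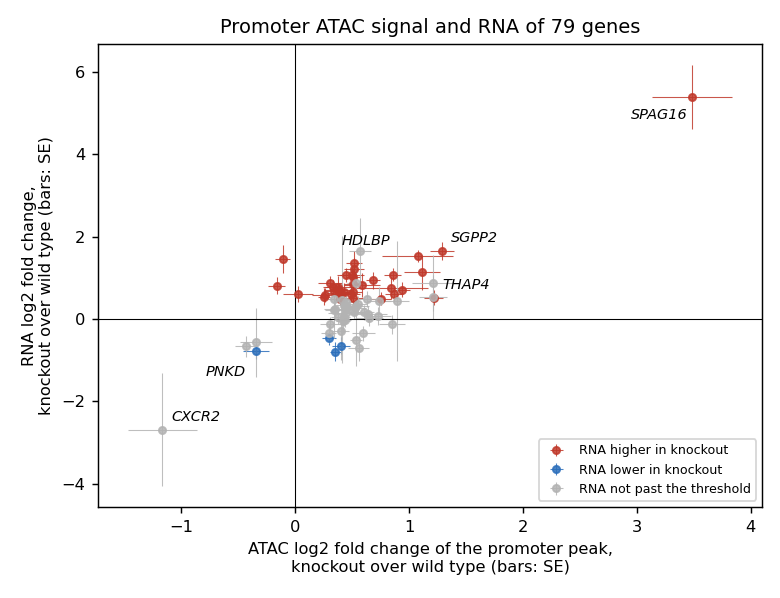
RNA log2 fold change against the ATAC log2 fold change of the promoter peak (both knockout over wild type, bars are SE) for 79 tested genes of the region, coloured by the RNA call. Most points form a cloud to the right of 0, with 61 to the upper right, SPAG16 far beyond at 3.49 and 5.39, and CXCR2 at the lower left.

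Against a null of a 1.5-fold change, 162 peaks were higher and 9 lower, and SPAG16, SGPP2, ACKR3, HDLBP and FARP2 were the 5 genes whose RNA stayed past the threshold. The calls of 25 other named genes ended under that test, those of XRCC5, BARD1, SP140, CUL3 and IRS1 among them. The region was chosen on its ATAC values and the share over all peaks is not given for this null, so the peak counts are only a description.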

How the data were processed

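Per the labels, RNA-seq (poly(A) RNA, SMARTer Stranded kit) and ATAC-seq (about 50000 cells) were made from RGS-SE knockout and wild-type Raji cells, 2 libraries each, 8 in all. The submitters' processing notes name Trim Galore, Trimmomatic, cutadapt, STAR, featureCounts, Bowtie2, HOMER, DESeq2 and GRCh38 or hg38; no version or setting is stated, and the peak caller is not given in the sources used here. The deposited signal of a gene or peak is, per the file headers, the mean over 4 libraries of counts after division by DESeq2 size factors. Fold changes and their SE are deposited on the log2 scale. The deposited Wald score equals the fold change over its SE to within 1.24e-13. The deposited p-value is two-sided and its adjusted form is Benjamini-Hochberg's. Per the file headers, the other measure is a peak's distance to the nearest start site in bp.

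No header names which genotype is on top of the ratio. Positive was read as higher in knockout because of the peak lost in the targeted interval; with the opposite coding all directions here would turn. The planned quasi-likelihood test of edgeR could not be run on tables without counts per library, so the authors' DESeq2 Wald results were used, called at an adjusted p under 0.05. The fitted count of each genotype follows from a row's mean and its ratio. CPM is the mean over the summed mean. Members and lists were chosen with earlier results of these data known. Named genes were, among called genes at 1 CPM or more, the 8 largest rises and up to 8 largest falls, and from each list the 3 genes or fewer that ranked first by adjusted p. Named peaks were the 6 largest rises and falls whose mean was not under that of the median peak (111), and promoter peaks of named genes. Other genes were named after their values were seen. All 25377 gene identifiers were found in GENCODE release 44, and all peaks lay within hg38 chromosomes; peak starts are printed as deposited. RefSeq promoter windows span 250 bases before to 50 after a start. Scripts used Python 3.11.15, pandas 2.3.3, NumPy 2.4.6 and SciPy 1.17.1, and were tested on simulated data. RNA size factors were recovered from genes with 1 read in 1 library; ATAC depth per library is unknown. The alternatives tried were a stricter threshold, a null of a 1.5-fold change, statistics divided by their robust scale over the table, fold changes centred on the table's median, a mean count of at least 100, starts at 205 and 215 Mb, and genes taken from promoter peaks or by their own start. A further B cell marker and the sequence of 1 further peak are not reported here.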

Additional observations from a re-analysis of the deposited data

How the results depend on the processing

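No setting reversed a direction. The region was chosen on its ATAC values with RNA results known, so this could hardly have come out otherwise and is no support for the shift. The region's median log2 fold change stayed between 0.49 and 0.54 for ATAC and between 0.42 and 0.50 for RNA, with centring on the table's median, a mean count of at least 100, starts at 205 or 215 Mb or genes of promoter peaks. At an adjusted p under 0.01, 31 peaks and 3 genes were lower (49 and 5 at 0.05). Against a null of a 1.5-fold change, 162 peaks were higher and 9 lower, and 5 genes rose and 0 fell. With statistics divided by their robust scale over the table, 85 peaks were higher and 1 lower, and 10 genes rose and 0 fell. With a mean of at least 100, 25 peaks were lower. The cause of these moves was not tested, beyond the fewer peaks tested in the last. The other counts stayed within 1.5 times, as counts and not as shares of what was tested. Shares over all peaks and genes under these settings are not given, so the counts are not read as results about the region. Of the 37 named genes, 25 lost their call against the 1.5-fold null, 20 with scaled statistics and 4 at 0.01 (CPS1, CTDSP1, TUBA4A and THAP4). No paired analysis was possible because the tables hold no values per library, and no library could be left out for the same reason. Few reads limit SPAG16 and CPS1 in wild type, CXCR2 in both genotypes and peaks with a mean under 100, whose median SE was 0.36.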

Other observations

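Peaks of any strength give more extreme values than the sites named above, on few counts. The highest log2 fold change of the region was that of an intergenic peak annotated to MIR4268, at 29.3 fitted counts in knockout and 0.492 in wild type (5.90, SE 1.52, in the authors' deposited table). An intergenic peak annotated to TNP1, a spermatid nuclear protein gene, was at 78.3 counts in knockout and 1.96 in wild type. A peak in exon 12 of ABCA12 was at 124 in knockout and 4.93 in wild type. Near GPR55, a lipid receptor gene, a peak was at 112 in knockout and 7.82 in wild type, and near COL6A3, a collagen gene whose RNA did not pass the threshold, one was at 84.8 in knockout and 6.92 in wild type. The lowest value was in intron 1 of INPP5D, at 13.1 counts in knockout and 70.8 in wild type, while the median over the 13 peaks of that gene was 0.32. These peaks were named after their values were seen.

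RefSeq promoter windows were matched for 203 of the region's genes, 304 windows in all. The E-box letters stood in 11.5% of them, against 7.26% of all 35116 windows, and the AP-1 letters in 5.26%, against 7.71%. NF-kB letters stood in 6.25% and 6.26%, CTCF letters in 19.7% and 17.8%, ETS-IRF letters in 7.89% and 7.79%, and ETS letters in 3.29% and 4.14%. Several windows can belong to 1 gene, so they are not independent, and no test was made.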
